A study of Mus musculus with 24 samples.

Results

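Cilia and sperm tails are built by intraflagellar transport, and the genes of that machinery were followed here through the last steps of sperm formation in the mouse. The genes were chosen by symbol: Ift or Bbs followed by a digit, any symbol starting with Dync2, and Wdr19, Wdr34, Wdr35, Wdr60, Ttc8, Ttc21b, Ttc30a1, Ttc30b, Traf3ip1, Cluap1, Mkks, Arl6 and Bbip1. The array annotation held 36 such genes among 19057 symbols, measured by 80 probes. Of these, 30 passed the filter on dim probes and were tested among 10759 genes. The other 6, Bbip1, Ift46, Ift57, Traf3ip1, Wdr19 and Wdr35, had no probe that was detected on enough arrays, and Arl6 was not analysed here.

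RNA of spermatids from mice aged 7 weeks was measured on Illumina bead arrays, 24 in all. The 4 groups of 6 arrays were condensing spermatids with a double knockdown of Cbp and p300 in cells after meiosis, wild-type condensing spermatids, round spermatids with the same knockdown, and wild-type round spermatids. The series asks which part of the late spermatid programme needs CBP and p300, related acetyltransferases of histones that help transcription factors switch genes on. The labels name neither the promoter that drives the knockdown nor whether replicates came from separate animals, so p-values measure only the spread between these samples.

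In intraflagellar transport, trains made of the IFT-A and IFT-B complexes run along the axoneme, the microtubule core of a cilium or flagellum. Kinesin-2 motors pull the trains towards the tip and dynein-2 brings them back, while the BBSome links membrane proteins to the trains. Male mice that lack one of several of these subunits, Ift88, Bbs4 and Mkks among them, make sperm with missing or malformed tails. A spermatid starts its tail in the round stage and finishes it while the nucleus condenses.

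The RFX factors drive ciliary genes in many animals, so the promoters were searched for the core of their binding motif. Promoter sequences are shown for the tested genes with a match before the start of transcription. The table of RefSeq promoters (build GRCm38.p6, 250 bases before to 50 bases after the start) held 31 of the 36 genes. The core of the RFX binding motif, GTTGCC, searched on both strands, occurred in 11 of these 31 promoters (35.5%) and in 12.5% of all 32851 promoters. Counting only the 250 bases before the start, it occurred in 5 genes (16.1%, against 10.4% of all promoters): Bbs7, Ift140, Ift27, Ift57 and Traf3ip1. A longer X-box pattern, this core followed after exactly 2 bases by a partly inverted copy, was found in Bbs7 (3.23% of the promoters, against 0.298% of all promoters), and other spacings were not searched. The CRE core TGACGT, bound by the CREB family of factors that recruit CBP, occurred in 5 promoters (16.1%, against 7.51%), those of Cluap1, Ift172, Ift20, Ift57 and Mkks, and the FOX core TGTTTAC in 0 (against 3.65%). The lines below give the 150 bases that end just before the start, 5′ to 3′ on the gene's strand, with the RFX core or its reverse complement in capitals. Bbs7 lies at chr3:36613390-36613539 on the minus strand, Ift140 at chr17:25015936-25016085 on the plus strand and Ift27 at chr15:78174082-78174231 on the minus strand.
Bbs7: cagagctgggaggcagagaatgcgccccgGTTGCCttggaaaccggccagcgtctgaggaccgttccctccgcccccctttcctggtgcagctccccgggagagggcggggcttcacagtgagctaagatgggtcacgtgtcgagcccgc
Ift140: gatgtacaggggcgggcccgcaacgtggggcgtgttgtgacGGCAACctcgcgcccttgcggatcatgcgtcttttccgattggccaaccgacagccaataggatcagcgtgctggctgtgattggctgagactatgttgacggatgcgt
Ift27: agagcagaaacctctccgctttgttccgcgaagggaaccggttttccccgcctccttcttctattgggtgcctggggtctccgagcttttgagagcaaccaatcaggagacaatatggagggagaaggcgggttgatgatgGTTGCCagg

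A match is a description of these letters and no evidence of binding. Of the 8 tested genes with an RFX core in the longer window, 1 was higher and 5 were lower in condensing than in round wild-type spermatids, as set out below. Of the 17 tested genes with a promoter but no RFX core, 1 was higher and 10 were lower. Over all tested genes, 30.3% were higher and 33.8% lower.

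Between 15687 and 18411 of 45281 probes were detected on an array. The 17 measured spermatid markers averaged 12.93 to 13.02 log2 on condensing arrays, against 13.04 to 13.16 on round arrays. In wild type 6 of them were higher and 7 lower in condensing samples, with a median of -0.1. In the knockdown 5 were higher and 7 lower. Over all genes 30.3% were higher and 33.8% lower in wild type, and 30.5% and 32.4% in the knockdown. Markers of other cells moved with the stage too. All 9 measured Sertoli cell markers were higher in condensing wild-type samples and averaged 9.66 to 10.04 log2 on condensing arrays, against 6.42 to 7.26 on round arrays, although Amh, Ctsl and Gata1 were detected on no array. All 5 erythroid markers were higher too, at 11.20 to 11.65 log2 on condensing arrays, against 6.03 to 7.66 on round arrays. So were 11 of 13 macrophage and leukocyte markers (7.09 to 7.84 log2 on condensing arrays, against 5.84 to 6.33 on round arrays, with Ptprc detected on none), 7 of 8 peritubular and stromal markers (7.34 to 7.73, against 5.74 to 6.26, with Col3a1 and Tagln on none) and 2 of 3 Leydig cell markers (7.98 to 8.54, against 5.85 to 7.09, with Hsd3b1 and Star on none). Markers of spermatocytes, the meiotic cells before the round stage, went the other way. In wild type 10 of 17 were lower and 3 higher in condensing samples, with a median of -0.47, and in the knockdown 9 were lower and 3 higher, with a median of -0.42. They averaged 8.42 to 8.67 log2 on condensing arrays, against 8.57 to 8.99 on round arrays, with Dmc1, Hormad1 and Sycp3 detected on no array. The part of these lists in the stage differences below was not tested. In such bulk samples fewer cells of a type and less RNA per cell cannot be told apart. The brightest probe of each targeted gene showed no detectable loss of transcript, and any other probes of these genes were not examined. The knockdown minus wild-type difference was 0.01 for Crebbp and 0.05 for Ep300 in round spermatids, and -0.11 and -0.02 in condensing spermatids. The SE was 0.17 in each case (6 arrays a group, with adjusted p of 0.935 or more in limma). The genotype labels could therefore not be checked this way.

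The transport and BBSome genes were, on balance, lower in condensing than in round spermatids, in both genotypes. In wild type, 18 of 30 were called lower and 2 higher (limma, Benjamini-Hochberg adjusted p under 0.05 over all genes), where 33.8% of all 10759 genes were called lower and 30.3% higher. Their median log2 difference was -0.50, against -0.03 over all genes. In the knockdown, 18 were called lower and 4 higher, where 32.4% of all genes were lower and 30.5% higher, and the median was -0.54 against -0.01. In 14 of the 30 genes every wild-type condensing array lay below every wild-type round array, which held for 22.3% of all genes. Most changes were modest: 3 genes fell 2-fold or more in wild type, Ttc30b, Ift43 and Bbs12, and 4 in the knockdown, Ttc30b, Bbs12, Ttc21b and Bbs10. Ttc21b was at background on the condensing knockdown arrays, so its fall there is known only as at least 1.71-fold. In the knockdown 1 member, Mkks, was called with a rise of 2-fold or more, and in wild type 0 were. Counting both directions, 1957 of all 10759 genes in wild type and 2007 in the knockdown were called with such a change. These counts rest on quantile normalization, which sets all arrays to 1 distribution. Scaling each array to the median of all its probes gave 1 higher and 25 lower members in wild type, with 2089 higher and 5302 lower genes in all. Scaling to the median of the probes detected on all 24 arrays, chosen after seeing the data, gave 4 higher and 15 lower members, with 5261 higher and 2609 lower genes in all. The median of all genes then moved to -0.31 and 0.30, and that of the members to -0.92 and -0.31, so the members' median stayed below that of all genes either way. In wild type the members' median was -0.26 both without background correction and in the authors' normalized table, against -0.01 over all genes in each, and -0.30 over all 36 members without the filter on dim probes.

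**Figure D1:**
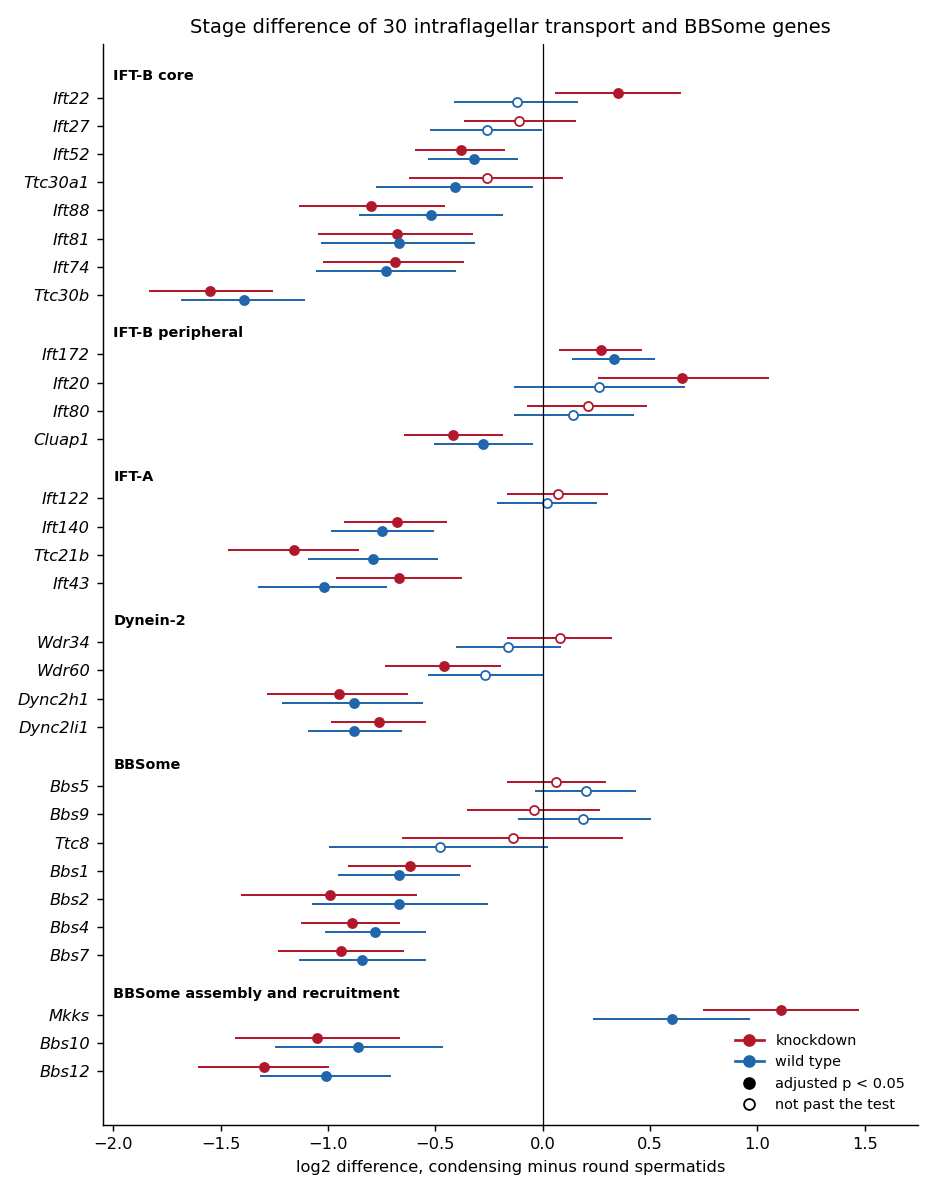
Log2 difference between condensing and round spermatids for the 30 tested genes, by sub-complex, in the knockdown (red, upper mark) and in wild type (blue, lower mark). Marks are limma estimates from 6 arrays per group, bars are 95% intervals and filled marks passed an adjusted p of 0.05. Most genes lie left of 0 in both genotypes, and Mkks and Ift172 lie right of it.

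The IFT-B core, the rigid centre of the train, held 8 tested genes, of which 6 were lower and 0 higher in wild-type condensing spermatids. For this and each sub-complex below, the shares over all genes were 33.8% lower and 30.3% higher in wild type. The largest fall was that of Ttc30b, one of several near-identical genes for the IFT70 subunit. Ttc30b read 6.13, 6.26 and 6.44 log2 (lowest, median and highest of 6) in wild-type condensing spermatids, against 7.30, 7.67 and 8.07 in wild-type round spermatids. The stages did not overlap, and the difference was -1.39 ± 0.14 log2 (SE, n = 6 each, adjusted p = 9.26e-10 by limma), 2.63-fold. In the knockdown it was -1.55, with 5.89, 6.11 and 6.49 log2 in condensing against 7.43, 7.56 and 8.20 in round spermatids. Its copy Ttc30a1 differed less (-0.41 ± 0.17, adjusted p = 0.0407) on a dim probe detected on 15 of 24 arrays, its call was lost on leaving out any one of 6 arrays, and it stood at 0.04 when arrays were scaled to the probes detected on all of them. Probes of such similar genes can take up each other's RNA, so the copies cannot be told apart with certainty.

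Ift74 and Ift81 form the pair of IFT-B subunits that binds tubulin. Ift74 read 8.97, 9.15 and 9.58 log2 in wild-type condensing spermatids, against 9.77, 9.84 and 10.39 in wild-type round spermatids. Again no condensing array reached the lowest round array, and the difference was -0.73 ± 0.16 (adjusted p = 0.000184 by limma). Its other probes gave -0.35, -0.49 and, on a probe detected on 12 of 24 arrays, 0.25, and the mean of the Ift74 probes lost the call at -0.33 (limma adjusted p = 0.0501). Ift81 moved by almost the same amount, -0.67 ± 0.17 (limma adjusted p = 0.00132), and its knockdown value of -0.68 was close to that. Other Ift81 probes gave -0.64 and, not past the test, -0.32 in wild type (limma adjusted p = 0.000608 and 0.058). Ift88, a subunit needed for cilia and sperm tails in mice, was lower by 0.52 on the log2 scale in wild type and by 0.80 in the knockdown (limma adjusted p = 0.00616 and 0.000103). Its other probe did not pass in wild type, at -0.33, and passed in the knockdown, at -0.78 (limma adjusted p = 0.0965 and 0.000277). Ift52, which joins parts of the core, fell by 0.32 and 0.38. The small GTPase Ift27 and the GTPase-like Ift22 did not pass the test in wild type, at -0.26 and -0.12. In the knockdown Ift22 was called higher, at 0.35 ± 0.14 (limma adjusted p = 0.0303), a call lost without any one of 6 arrays, and at -0.07 when arrays were scaled to the median of all probes.

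The peripheral IFT-B subunits, which sit on the outside of the train and include the kinesin-2 and membrane contacts, had 1 of 4 tested genes higher and 1 lower in wild type, with a median of 0.20. That is 50% called, against 64.2% of all genes. Ift172 read 14.31, 14.35 and 14.41 log2 in wild-type condensing spermatids, against 13.82, 14 and 14.29 in wild-type round spermatids. The stages did not overlap, with the condensing arrays on top, which held for 20.8% of all genes. The difference was 0.33 ± 0.09 (limma adjusted p = 0.00247). This probe read close to the highest value of 15.2 on an array, where large folds are compressed, and the 2 other Ift172 probes rose by 0.72 and 0.83. Ift20, which also sits at the Golgi and carries membrane proteins from there to the cilium, was called higher in the knockdown, at 0.65 ± 0.19 (limma adjusted p = 0.00426), and stood at 0.26 ± 0.19 in wild type (adjusted p = 0.236). Its other 2 probes were called higher in both genotypes, at 0.72 and 0.54 in wild type and 1.37 and 0.90 in the knockdown, and the stage difference of Ift20 was not shown to depend on the genotype (adjusted p = 0.81 for that test).

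Probes of 2 peripheral subunits disagreed. Cluap1, also known as IFT38, read 9.41, 9.66 and 9.81 log2 in wild-type condensing spermatids, against 9.70, 9.96 and 10.05 in wild-type round spermatids, with overlap, on the probe used. That probe was lower by 0.28 ± 0.11 (limma adjusted p = 0.0276), and the call was lost without any one of 3 arrays. A dimmer Cluap1 probe went the other way, with 6.23, 6.43 and 7.16 log2 in wild-type condensing spermatids, against 4.81, 4.93 and 5.40 in wild-type round spermatids. No round array reached the condensing arrays on this probe, which was called higher (limma adjusted p = 2.62e-07). It was detected on all 6 condensing but on 2 of 6 round arrays in wild type, so the size of that difference is not given. For Ift80 the probe used gave 0.14 ± 0.13 (limma adjusted p = 0.353). Its other probe was detected on all 6 wild-type round arrays and on 0 of 6 wild-type condensing arrays, which puts that signal at least 2.24-fold lower in condensing spermatids. Averaging the probes turned both genes round, to 0.61 for Cluap1 and -0.76 for Ift80, so neither has a settled direction.

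**Figure D2:**
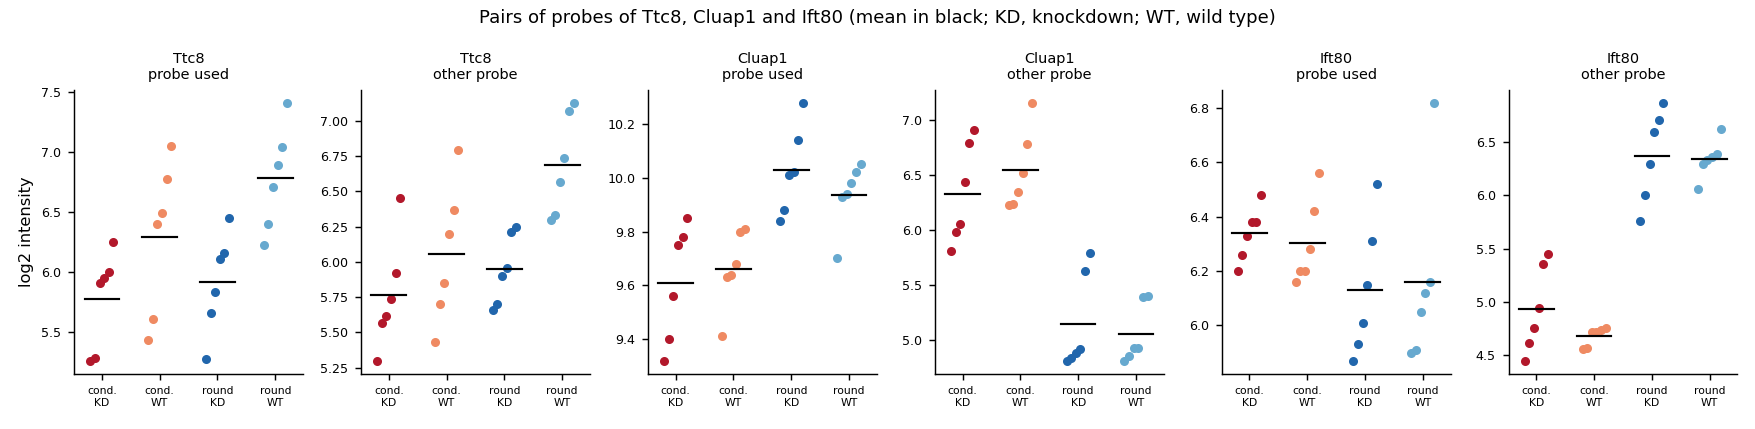
Log2 intensity on each of 24 arrays for 2 probes each of Ttc8, Cluap1 and Ift80, with the 4 groups from left to right as condensing knockdown, condensing wild type, round knockdown and round wild type. Points are single arrays, ordered by level within a group, and black lines are means of 6. The Ttc8 probes run alike, while the Cluap1 probes, and the Ift80 probes, order the stages differently.

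IFT-A, the complex needed for return to the cell body and for the entry of membrane proteins, had 3 of 4 tested genes lower and 0 higher in wild type. Ift43 read 10.89, 11.18 and 11.29 log2 in wild-type condensing spermatids, against 11.61, 12.26 and 12.47 in wild-type round spermatids. The stages were apart, and the difference of -1.02 ± 0.14 was 2.03-fold (limma adjusted p = 4.85e-07). The knockdown gave -0.67, with 11.21 to 11.28 log2 in condensing against 11.35 to 12.20 in round spermatids. Ift140 was lower by 0.75 ± 0.12 in wild type (limma adjusted p = 2.24e-06), and its 2 other probes gave -0.62 and -0.65. Ttc21b, which encodes IFT139, fell by 0.79 in wild type and by 1.16 in the knockdown (limma adjusted p = 2.6e-05 and 7.05e-08). It was not well above background on any of 6 condensing knockdown arrays, so the knockdown value is better read as at least 1.71-fold lower. In wild type it was detected on 2 of 6 condensing arrays, so that value is not exact either, and the call was lost at -0.35 when arrays were scaled to the probes detected on all of them (limma adjusted p = 0.0532). Ift122, a core subunit, differed by 0.02 ± 0.11, not past the test.

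In dynein-2, the motor of the return run, the heavy chain Dync2h1 and light intermediate chain Dync2li1 were lower in wild type, while the intermediate chains Wdr34 and Wdr60 did not pass. Dync2h1 read 9.53, 9.81 and 9.99 log2 in wild-type condensing spermatids, against 10.33, 10.56 and 11.40 in wild-type round spermatids. All condensing arrays lay below all round arrays, by 0.88 ± 0.16 in the mean (limma adjusted p = 1.95e-05), and the 4 other probes of Dync2h1 ran from -1.57 to -0.52. The probes at -0.93 and -0.52 were detected on 0 and 1 of 6 wild-type condensing arrays, so background limits the size of these 2 values. Dync2li1 was also lower by 0.88, with a smaller error of 0.10 (limma adjusted p = 2.91e-08). Wdr34 gave -0.16 ± 0.12 and Wdr60 -0.27 ± 0.13 in wild type (limma adjusted p = 0.241 and 0.0696). In the knockdown Wdr60 passed on the probe used, at -0.46 ± 0.13 (limma adjusted p = 0.00227), and Wdr34 did not, at 0.08. Other tested Wdr60 probes did not pass there, at -0.25 and -0.04 (limma adjusted p = 0.0905 and 0.808). The first of these was detected on all 24 arrays and the second on 14.

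In the BBSome, 4 of 7 tested subunits were lower and 0 higher in wild type. Bbs7, whose promoter is printed above, read 9.95, 10.14 and 10.25 log2 in wild-type condensing spermatids, against 10.74, 10.84 and 11.42 in wild-type round spermatids. The gap between the stages was wider than the range of the condensing arrays, and the difference was -0.84 ± 0.14 (limma adjusted p = 7.22e-06). Bbs4, the subunit that binds the centriolar satellite protein Pcm1, read 7.99, 8.14 and 8.29 log2 in wild-type condensing spermatids, against 8.67, 8.91 and 9.25 in wild-type round spermatids. It did not overlap either, at -0.78 ± 0.11 (limma adjusted p = 5.39e-07). Bbs1, which contacts the small GTPase that recruits the complex, and Bbs2, part of its core, were each lower by 0.67 in wild type, and by 0.62 and 0.99 in the knockdown. Bbs5, Bbs9 and Ttc8 did not pass the test, at 0.20, 0.19 and -0.48 in wild type and 0.06, -0.04 and -0.14 in the knockdown. A second Ttc8 probe, detected on all 24 arrays, was called lower in wild type, at -0.63 (limma adjusted p = 0.00703). In the knockdown this Ttc8 probe gave -0.18 and did not pass (limma adjusted p = 0.449).

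Mkks, Bbs10 and Bbs12 are chaperonin-like proteins that fold BBSome subunits into the complex, and here they moved apart. Mkks read 5.53, 6.40 and 6.58 log2 in wild-type condensing spermatids, against 5.31, 5.67 and 5.93 in wild-type round spermatids. A single condensing array, replicate 13 at 5.53, lay among the round arrays, and the rise was 0.60 ± 0.18 (limma adjusted p = 0.00426). With arrays scaled to the median of all probes the Mkks rise was 0.29 and lost its call (limma adjusted p = 0.121), and in the authors' normalized table it was 0.23. In the knockdown Mkks read 6.36, 6.75 and 6.91 log2 in condensing against 4.98, 5.58 and 6.00 in round spermatids, with no overlap and a rise of 1.11 ± 0.18 (limma adjusted p = 3.77e-06). Of all genes, 19.5% were higher without overlap between the stages of the knockdown. Bbs12 went the other way, with 5.27, 5.46 and 5.97 log2 in wild-type condensing spermatids, against 6.17, 6.55 and 7.12 in wild-type round spermatids. Its difference was -1.01 ± 0.15 (limma adjusted p = 8.54e-07). The Bbs12 probe was close to background in condensing spermatids, detected on 5 of 6 knockdown arrays there, so its folds are not exact. Bbs10 was lower by 0.86 ± 0.19 in wild type and by 1.05 ± 0.19 in the knockdown (limma adjusted p = 0.000221 and 1.67e-05), and its second probe gave -1.19 and -1.03.

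**Figure D3:**
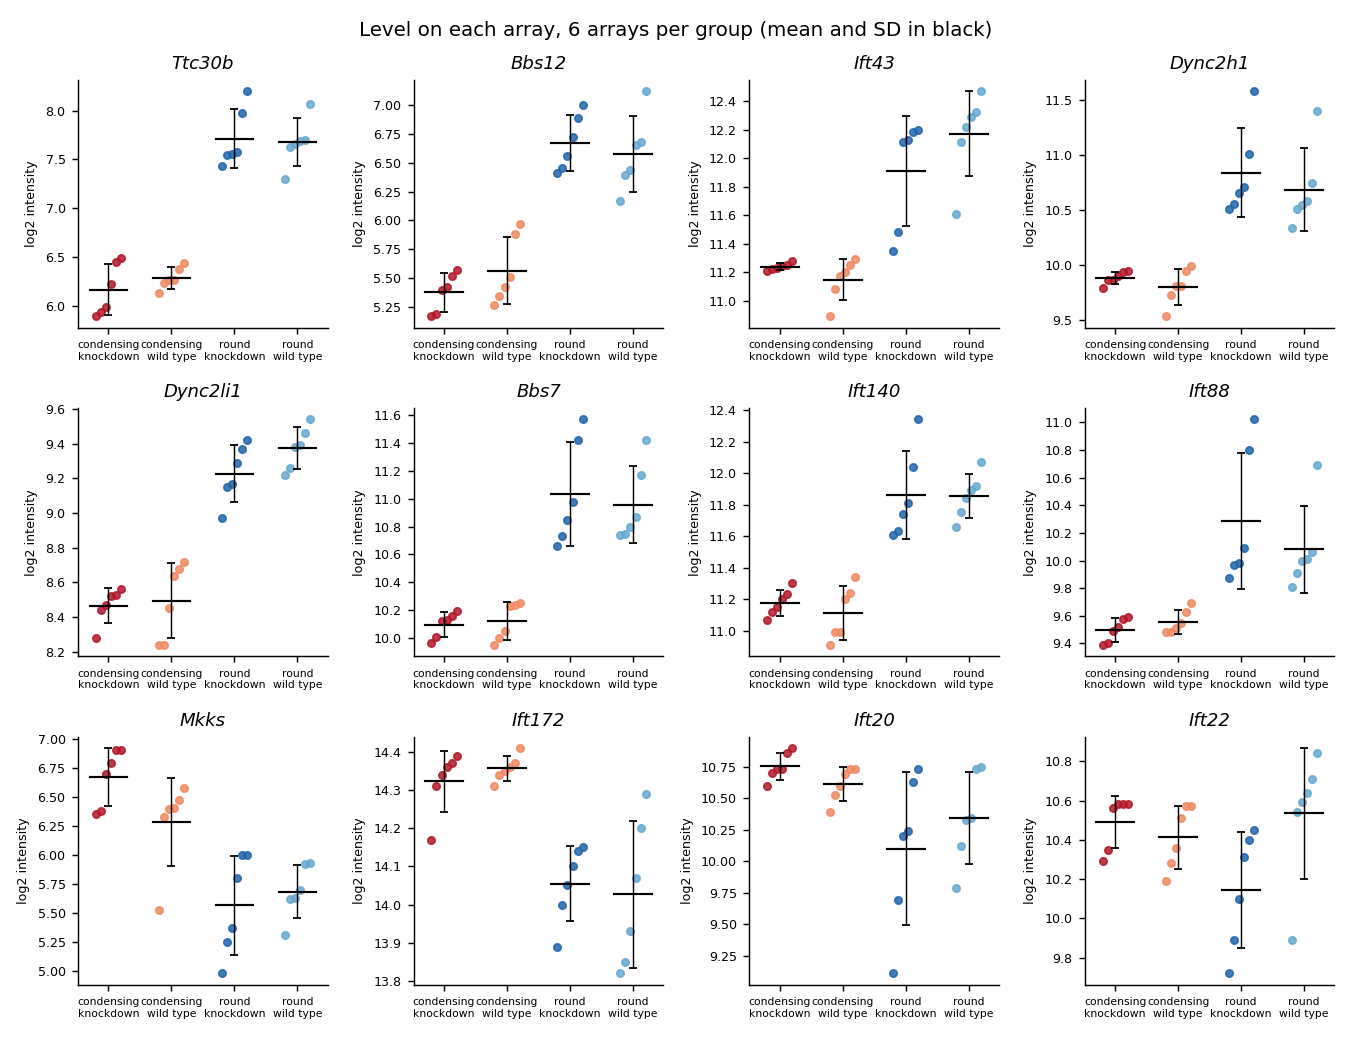
Log2 intensity on each array for 12 of the genes, with the groups from left to right as condensing knockdown, condensing wild type, round knockdown and round wild type. Points are single arrays, ordered by level within a group, with the mean and SD of 6 in black, and each panel has its own axis. The first 8 genes are lower in condensing than in round spermatids, while Mkks and Ift172 are higher.

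Genes that work with this machinery were counted on the same scale. Of 45 tested partners, motors, shared light chains, transition zone and other ciliary proteins and regulators, 25 were lower and 8 higher in wild-type condensing spermatids. Over all genes 33.8% were lower and 30.3% higher. The median of the 45 genes was -0.39, against -0.03 over all genes. Among kinesin-2 subunits, the motor Kif17 was higher by 0.95 ± 0.09 (limma adjusted p = 3.61e-10) and the adaptor Kifap3 by 0.55 ± 0.22 (adjusted p = 0.027). The motor subunits Kif3a and Kif3b, partners of Kifap3, were lower by 0.45 and 0.54 (limma adjusted p = 8.93e-05 and 0.00127), and Kif3c did not pass at 0.15. A further pair of IFT-B genes listed under other symbols fell in wild type, Ttc30a2 by 1.04 and Ttc26 by 0.51. In the knockdown 1 of these 2 was called lower. Of the 5 kinesin-2 genes, 1 was called higher and 2 lower there. The shares over all genes in the knockdown were 32.4% lower and 30.5% higher.

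Of the BBSome and transport partners, 9 of 15 were lower and 3 higher. The shares over all genes, 33.8% lower and 30.3% higher, apply to each count of this paragraph. The largest falls were those of Rabl2 (-1.55), a small GTPase needed for sperm tails in mice, of the small GTPase Arl3 (-0.96) and of Rpgr (-0.88). The rises were those of Trim32 (1.43), a ubiquitin ligase also called BBS11, of Ccdc28b (0.96) and of Arl2bp (0.63), a partner of the small GTPase Arl2. A further list held genes of the transition zone, the gate at the base of the cilium, and of other parts of the cilium. In it 7 of 13 were lower, led by Tmem216 (-1.26), Inpp5e (-1.08) and Ahi1 (-1.0), and Invs alone was higher (0.37). Of the dynein light chains, Dynlt3 (1.69) and Dynlrb1 (1.07) were higher, and Dynlrb2 (-0.88) and Tctex1d2 (-0.62) lower. Of 5 regulators, the factors Rfx4 (-0.90), Rfx2 (-0.51) and Foxj1 (-0.49) were lower. A list of genes of the axoneme and other parts of the sperm tail had 39 of 49 lower and 4 higher, with a median of -0.81. Dnaic2 (-1.92), Cfap61 (-1.51) and Spag6 (-1.49) led the falls, while Ropn1 (1.14), Tekt5 (0.75) and Ccdc103 (0.52) were the largest rises. The highest limma adjusted p among the values of this paragraph was 0.0251.

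None of the 30 genes was called between the genotypes. In round spermatids 0 of 30 passed (limma), as did 0% of all genes, 388 of which had an unadjusted p under 0.05, 2 of them members. In condensing spermatids 0 of 30 passed, where 0.539% of all genes did, and 948 genes had an unadjusted p under 0.05, 2 of them members. The difference between the 2 knockdown effects was called in 0 of 30, against 0.0465% of all genes. The limma-trend test with robust moderation also called 0 of 30 each time. The members' median was 0.03 in round and -0.03 in condensing spermatids, against 0.00 and 0.01 over all genes. Leaving out Ttc8, the 95% intervals of the knockdown differences ran no lower than -0.68 and no higher than 0.75 log2.

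Ttc8, the BBSome subunit also called BBS8, had the most negative knockdown difference of all 10759 genes in round spermatids. It read 5.27, 5.97 and 6.45 log2 in knockdown round spermatids, against 6.22, 6.80 and 7.41 in wild-type round spermatids. All but 1 of the knockdown arrays lay below the lowest wild-type array. The difference was -0.87 ± 0.25 (SE, n = 6 per group, 95% interval -1.37 to -0.36), with a limma adjusted p of 0.999, so it did not pass. A second Ttc8 probe read 5.66, 5.93 and 6.25 log2 in knockdown round spermatids, against 6.30, 6.66 and 7.13 in wild-type round spermatids, with no overlap and a difference of -0.74 (limma adjusted p = 0.999). On the probe used for each gene, 0.0651% of all genes were lower without overlap in this comparison, and Ttc8 was not among them. In condensing spermatids the probe used read 5.26, 5.93 and 6.25 log2 in the knockdown, against 5.43, 6.44 and 7.05 in wild type, with wide overlap. There the difference was -0.52 ± 0.25 (limma adjusted p = 0.543), and the second probe gave -0.29. Over 13 other settings the Ttc8 difference ran from -1.12 to -0.38 in round spermatids.

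Among the other genes closest to the test, Ift22 read 9.72, 10.20 and 10.45 log2 in knockdown round spermatids, against 9.89, 10.61 and 10.84 in wild-type round spermatids. All but 1 of the wild-type arrays lay above every knockdown array, and the difference was -0.39 ± 0.14 (limma adjusted p = 0.999). Ift43 gave -0.26 ± 0.14 (limma adjusted p = 0.999), with 11.35, 12.12 and 12.20 log2 in knockdown round spermatids against 11.61, 12.26 and 12.47 in wild-type round spermatids, which overlap. In condensing spermatids Mkks was 0.39 ± 0.18 higher in the mean, from the values given above (limma adjusted p = 0.51). Wdr34 read 8.78, 8.94 and 9.08 log2 in knockdown condensing spermatids, against 8.31, 8.74 and 9.10 in wild-type condensing spermatids. These groups overlap, at 0.24 ± 0.12 (limma adjusted p = 0.581). The smallest p for a difference between the knockdown effects was that of Ift22 (0.47 ± 0.20, limma adjusted p = 0.647).

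**Figure D4:**
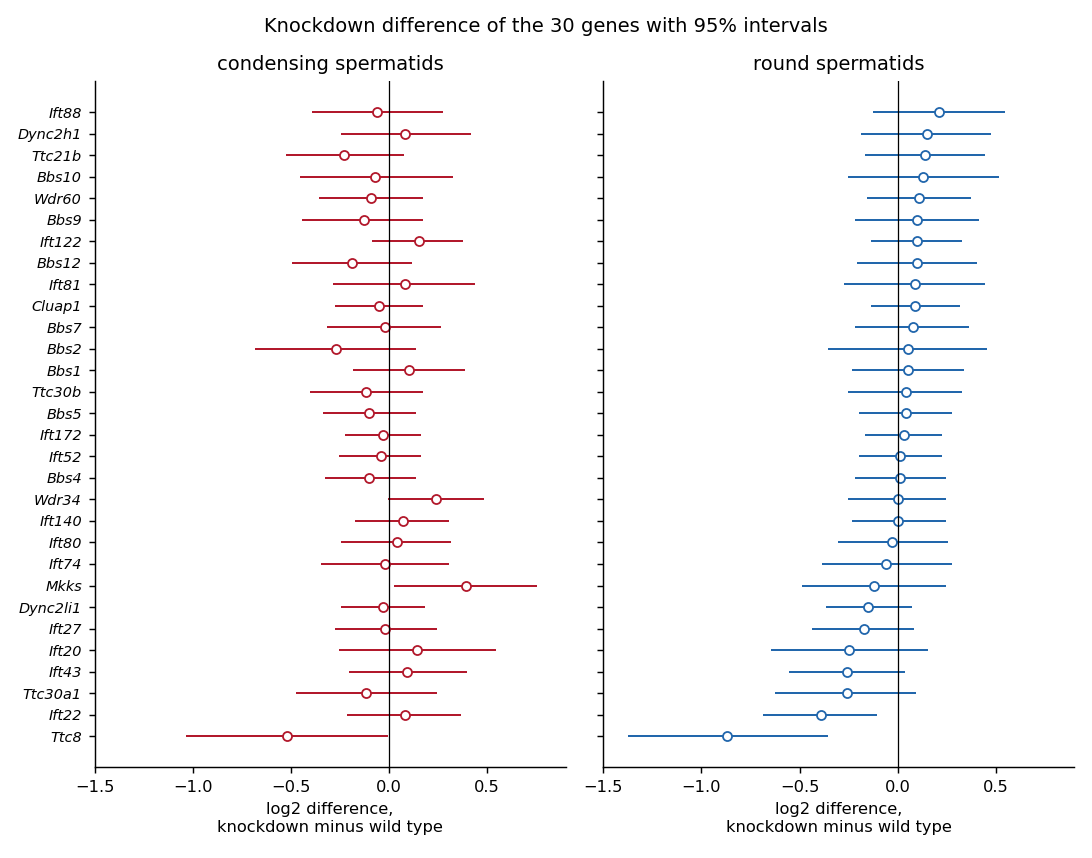
Log2 difference between knockdown and wild type for the 30 genes in condensing spermatids (left, red) and in round spermatids (right, blue), ordered by the round value. Marks are limma estimates from 6 arrays per group and bars are 95% intervals, and no gene passed the adjusted test. Ttc8 has the lowest value in both stages.

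The members' mean on an array ran over 8.98 to 9.30 log2 in knockdown and 9.06 to 9.30 in wild-type round spermatids, against 8.59 to 8.70 in knockdown and 8.57 to 8.75 in wild-type condensing spermatids. Round wild-type replicate 3 and round knockdown replicates 8 and 10 were outlying when all genes were considered, and members averaged 0.19, 0.07 and 0.21 log2 above their group mean on them. The spermatocyte markers were also highest on these arrays, at 8.99 log2 on replicate 3, against 8.57 to 8.82 on the other round wild-type arrays, and at 8.90 and 8.95 on replicates 8 and 10, against 8.59 to 8.71 on the other round knockdown arrays. Their part in the members' level was not tested. Without these 3 arrays, 19 members were lower and 4 higher in wild type, with a median of -0.47, and 19 were lower in the knockdown, with a median of -0.42. Bbs9 and Ift80 then joined the genes called higher in wild type, and in the knockdown Ift22 was no longer called and Ift80 was.

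**Figure D5:**
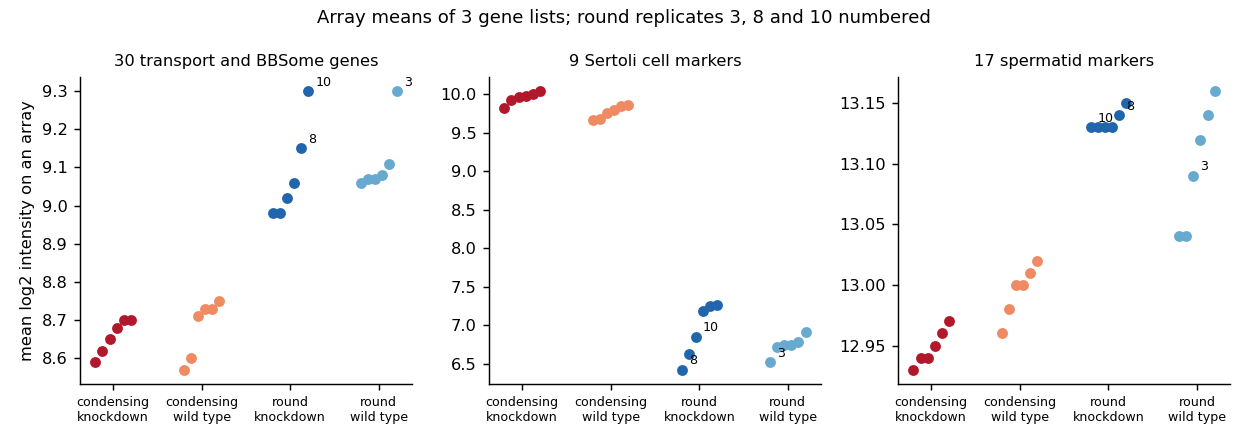
Mean log2 intensity on each array over the 30 genes, over 9 Sertoli cell markers and over 17 spermatid markers, in the 4 groups, with round replicates 3, 8 and 10 numbered. The 30 genes and the spermatid markers are lower on every condensing array than on every round array, and the Sertoli cell markers are higher on all condensing arrays.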

How the data were processed

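RNA was labelled as biotinylated cRNA and hybridized to Illumina bead arrays, per the labels' protocols. The authors deposited a table of non-normalized bead intensity values on a linear scale for 45281 probes, which per the file headers also holds a detection p-value for each probe and array, and a second table of normalized intensity values. Which software and test the authors used is not given in the sources used here. Intensities were background-corrected with the normexp method informed by the detection p-values (offset 16), quantile normalized and log2 transformed (limma 3.58.1, R 4.3.3). A probe was kept if its detection p was under 0.05 on 6 or more arrays (19086, of which 3143 had no symbol and 10 had several), and the brightest probe stood for each of 10759 symbols. Symbols came from the supplied probe annotation. A limma model with 4 group means and 20 residual degrees of freedom gave 5 contrasts, with two-sided moderated tests and Benjamini-Hochberg adjustment over all genes, and a gene was called at an adjusted p under 0.05. Errors of differences are standard errors. Precision is set by the number of arrays, and the typical (median) 95% interval extended 0.29 log2 to each side. Only the limma fit was tested on simulated data, not the background correction, normalization, probe filter or choice of probe. Promoters came from RefSeq, build GRCm38.p6.

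The members and gene lists were chosen with earlier results of these data known. Every tested member was named. Values by array were given for the called rise and fall with the largest wild-type stage change in each sub-complex (2 of each where 5 or more members were tested) and for the 3 members with the smallest p in each knockdown contrast. Both probes were named where called probes disagreed, together with Ift80, chosen after its values were seen. Of related genes, kinesin-2 subunits and the 3 largest called changes of a list in each direction were named. Alternatives covered scaling, background, offset, filter, probe choice, the deposited normalized table, moderation, weights, the samples fitted and each array left out.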

Additional observations from a re-analysis of the deposited data

Results flagged for a closer look

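In 10 of 120 combinations of a gene and a group, 1 array lay far from the other 5, by a gap that chance alone exceeds in about 1 in 20 groups. Round wild-type replicate 3 did so in 5 genes. It was the highest for Bbs10 (9.05 log2, next 8.27), Ift74 (10.39, next 9.97), Ift80 (6.82, next 6.16) and Ift88 (10.69, next 10.06), and the lowest for Ift22 (9.89, next 10.54). Round knockdown replicate 10 was the highest for Ift122 (10.02, next 9.62) and Ttc30a1 (6.12, next 5.40). Round wild-type replicate 2 was the lowest for Cluap1 (9.70, next 9.93). In condensing spermatids, knockdown replicate 21 was the lowest for Ift172 (14.17, next 14.31) and wild-type replicate 13 the lowest for Mkks (5.53, next 6.33). Round replicates 3 and 10 are among the 3 arrays that stood apart over all genes. What sets these arrays apart was not tested.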

How the results depend on the processing

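In wild type the number of members called higher between stages was 1 under median scaling over all probes, and 4 each under cyclic loess, the mean of probes, median scaling over the probes detected on all 24 arrays and without round replicates 3, 8 and 10 together; in the knockdown it was 2 under median scaling. The numbers called in all, and called lower, kept within 1.5 times their values. Leaving out 1 array gave 19 to 21 called members in wild type (2 to 3 higher, 17 to 19 lower) and 21 to 22 in the knockdown (3 to 4 higher, 18 to 18 lower), and 0 to 0 in either knockdown contrast and in their difference, which no other setting changed either. Among values called in either setting, signs turned under median scaling for Bbs9 (-0.39) and Ift122 (-0.55) in wild type and for Ift122 (-0.39), Ift22 (-0.07) and Wdr34 (-0.41) in the knockdown. The mean of probes turned Cluap1 (0.61 in wild type, 0.39 in the knockdown) and Ift80 (-0.76 and -0.62), whose probes disagree. Median scaling over probes detected on all 24 arrays turned Ttc30a1 in wild type (0.04). Values that were called in neither setting also crossed 0: Ift20 (-0.22) and Ift80 (-0.21) in wild type, and Bbs5 (-0.06) and Ift80 (-0.06) in the knockdown, under median scaling; Bbs9 (0.09) and Ttc8 (0.02) in the knockdown under cyclic loess; Ift27 (0.04) in the knockdown under the mean of probes; and Ttc30a1 (0.12) and Ttc8 (0.12) in the knockdown under median scaling over probes detected on all 24 arrays. Bbs9 (0.03 to 0.05) and Ttc8 (0.05) in the knockdown and Ift122 (-0.05) in wild type crossed it with array weights or arrays left out. The cause of the shifts with scaling was not tested. Ttc30a1 lost its wild-type call without replicate 3, 4, 5, 16, 17 or 18, Cluap1 without 4, 6 or 13, and Ift22 its knockdown call without 8, 10, 19, 21, 22 or 24. No paired analysis was possible because the array numbers run from 1 to 24 and no number is shared between groups. A fit with the slide as a block was not run, since the file headers name no slide. Dim probes (Ttc21b, Ttc30a1, Bbs12 in condensing spermatids, the dimmest Dync2h1 probes and the second probes of Cluap1 and Ift80) limit the precision of their folds.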
